A study of Mus musculus with 6 samples.

Results

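The KDEL receptors and the receptors that carry cargo between the endoplasmic reticulum (ER) and the Golgi complex were followed in osteoblastic cells with and without ascorbic acid (AA). The genes were Kdelr1, Kdelr2, Kdelr3, Surf4, Lman1, Lman2, Mcfd2, Ergic1, Ergic2 and Ergic3. They and the lists set beside them below were chosen with earlier results of these data known. Every probe set that the platform annotation names for any of the genes was taken, whether or not the cells had changed it. These were 29 of 45037 probe sets and 10 of 18193 genes, and 0 of the 29 carried a further gene symbol. In the AA group, 3 cultures of MC3T3-E1 subclone 4, a mouse calvarial pre-osteoblast line, had received AA (50 µg in the labels, which give no volume) for 5 days. In the control group, 3 cultures of the same line were left untreated for the same 5 days. Both groups grew in 6-well plates in alpha-MEM made without AA, with heat-inactivated serum. The medium was renewed every second day, and the RNA of every culture went onto an Affymetrix mouse expression array of its own. The line stems from a clone, and the study speaks both of triplicate wells and of triplicate experiments, so p-values measure the spread between these samples, which may be technical.

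Soluble proteins of the ER lumen that escape to the Golgi are caught there by the KDEL receptors, which bind a KDEL-type ending at the C terminus and return in vesicles coated with COPI. In the forward direction, receptors such as Surf4 and the mannose-binding lectin Lman1 span the membrane, bind soluble cargo in the lumen and enter vesicles coated with COPII at ER exit sites. Osteoblasts send large amounts of procollagen along this route, and AA is the cofactor of the hydroxylases that modify procollagen in the ER.

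At day 5, transcripts of Kdelr1, Kdelr3, Surf4 and Lman1 were higher in AA-treated cells than in control cells by the brightest probe set of each gene, and Kdelr2 was higher by its other probe set. Kdelr3 was 1.91-fold higher, Surf4 1.56-fold, Lman1 1.40-fold and Kdelr1 1.32-fold. The transcripts of Mcfd2, Lman2, Ergic1, Ergic2 and Ergic3 passed the test in no probe set. Of the 29 probe sets, 11 were higher and 0 were lower (limma, adjusted p under 0.05 over all probe sets), where 2.71% of all probe sets were called higher and 2.5% lower. Among the brighter probe sets, those with a mean above the median of all, where 28 of the 29 lay, these shares were 5.23% and 4.83%. At an unadjusted p under 0.05, 16 were higher and 3 lower, where 8.58% and 9.41% of all probe sets were. Counted by gene through the brightest probe set, 4 of 10 were higher and 0 lower, beside 4.06% and 3.83% of all genes, and at an unadjusted p under 0.05 the counts were 6 and 2, beside 10.7% and 12.8%. The median log2 fold change of AA over control was 0.31 over the 29 probe sets, beside -0.01 over all probe sets. Probe sets of a gene read the same transcripts, so the 5 of Surf4 and the 5 of Lman1 are not separate observations.

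The promoters of the members are shown first. Whether the letters around the start site bear on the changes of the transcripts was not tested. RefSeq's promoter table (GRCm38.p6, 250 bases before to 50 after each start) held 8 of the 10 genes, without Kdelr2 and Lman1. Printed here are the windows of the 3 members in the table that rose, Kdelr3, Kdelr1 and Surf4. The window of Mcfd2, which did not pass the test, is added because it holds the most ACGTG matches when both strands are counted. Kdelr3 lies at chr15:79516158-79516457 on the plus strand, Kdelr1 at chr7:45872590-45872889 on the plus strand, Surf4 at chr2:26933462-26933761 on the minus strand and Mcfd2 at chr17:87265898-87266197 on the minus strand. Capitals mark matches to ACGTG or to TGACGTG on either strand.
Kdelr3: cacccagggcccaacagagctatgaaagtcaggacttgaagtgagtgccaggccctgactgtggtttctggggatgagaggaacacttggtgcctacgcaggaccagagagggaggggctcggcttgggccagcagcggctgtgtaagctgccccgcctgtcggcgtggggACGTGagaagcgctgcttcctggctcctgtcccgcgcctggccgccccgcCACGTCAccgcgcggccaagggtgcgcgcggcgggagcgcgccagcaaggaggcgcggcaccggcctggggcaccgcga
Kdelr1: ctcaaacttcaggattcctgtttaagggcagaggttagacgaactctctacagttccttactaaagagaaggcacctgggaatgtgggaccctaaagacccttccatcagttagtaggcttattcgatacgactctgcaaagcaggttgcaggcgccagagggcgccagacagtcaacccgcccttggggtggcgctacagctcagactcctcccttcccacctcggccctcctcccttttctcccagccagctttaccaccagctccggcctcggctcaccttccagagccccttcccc
Surf4: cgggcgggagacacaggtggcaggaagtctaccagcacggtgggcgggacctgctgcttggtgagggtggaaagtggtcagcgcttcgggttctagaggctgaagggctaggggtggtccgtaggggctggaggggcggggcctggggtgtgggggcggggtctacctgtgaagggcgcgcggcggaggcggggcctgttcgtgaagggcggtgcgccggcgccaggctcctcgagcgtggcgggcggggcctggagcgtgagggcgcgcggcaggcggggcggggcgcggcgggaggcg
Mcfd2: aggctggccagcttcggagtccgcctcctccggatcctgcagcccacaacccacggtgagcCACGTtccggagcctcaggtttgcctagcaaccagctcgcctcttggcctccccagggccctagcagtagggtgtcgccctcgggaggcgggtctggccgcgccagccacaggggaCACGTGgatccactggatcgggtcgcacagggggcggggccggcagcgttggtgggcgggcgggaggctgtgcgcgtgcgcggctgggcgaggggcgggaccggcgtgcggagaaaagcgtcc

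The searched letters were TGACGTG, a core of elements bound by XBP1 and by CREB3-type factors of the ER, the ER stress response element, CCAAT and CCACG with 9 bases between, and the shorter ACGTG, which lies within TGACGTG. Of the 8 windows, only that of Kdelr3 held TGACGTG, read as CACGTCA on the printed strand with its first base at -29 from the start, and 2.01% of 32851 promoter windows held it. ACGTG was present in the windows of Kdelr3 at -79 and -29, of Mcfd2 at -189, -73 and -72, and of Lman2 at -84, against 19.6% of all windows. The match at -29 in Kdelr3 is part of the TGACGTG match, and those at -73 and -72 in Mcfd2 are the same letters read on both strands. The ER stress response element was in none of the 8 windows and in 0.119% of all. The windows of Kdelr1 and Surf4, which also rose, held none of the 3 motifs. The printed windows were richer in G and C than the median of all windows, 52.7%. They held 69.7% in Kdelr3, 72.3% in Mcfd2, 75% in Surf4 and 57% in Kdelr1, and the shares over all windows were not matched for this. A match describes letters only.

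Kdelr3, 1 of the 3 retrieval receptors, showed the smallest p-value among the brightest probe sets. Its probe set 1418538_at gave signals of 3254, 2982 and 2829 in the AA cultures, against 1653, 1392 and 1574 in the control cultures. Every AA value lay far above every control value, with 3021 ± 215 in AA and 1540 ± 134 in control (SD, n = 3 each). The log2 fold change was 0.93 ± 0.07 (SE) with limma's adjusted p = 0.000520, and the same-numbered pairs gave 0.89, 1.02 and 0.88.

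Kdelr1, another of the retrieval receptors, changed by a smaller amount. Its only probe set, 1460211_a_at, had signals of 2222, 1980 and 1906 in AA-treated cells and 1452, 1487 and 1545 in control cells. The groups did not overlap, and AA replicate 1 stood highest. The log2 fold change was 0.40 ± 0.08 (SE) with limma's adjusted p = 0.0248. The call was lost at adjusted p = 0.103 without replicate 1 and 0.0948 without replicate 2, and with no replicate block at 0.0520 without AA replicate 1, 0.0657 without AA replicate 2 and 0.0510 without control replicate 2. Median centring also lost it, at 0.136.

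For Kdelr2 the answer differed between its probe sets. The brightest, 1417204_at, read 5755, 5471 and 4863 in AA-treated cells and 4591, 4502 and 4234 in control cells. All AA values were above all control values, yet the log2 fold change was only 0.16 ± 0.07 (SE), with limma's adjusted p = 0.256. The second, 1417205_at, read 1590, 1364 and 1360 in AA and 841, 712 and 620 in control. There the rise was clear in every pair, and the log2 fold change was 1.00 ± 0.08 (SE) with limma's adjusted p = 0.000658. The mean of both probe sets gave 0.58 with limma's adjusted p = 0.00593, so the change of Kdelr2 depends on which probe set stands for it, and the files do not show which part of the transcript each one reads.

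**Figure D1:**
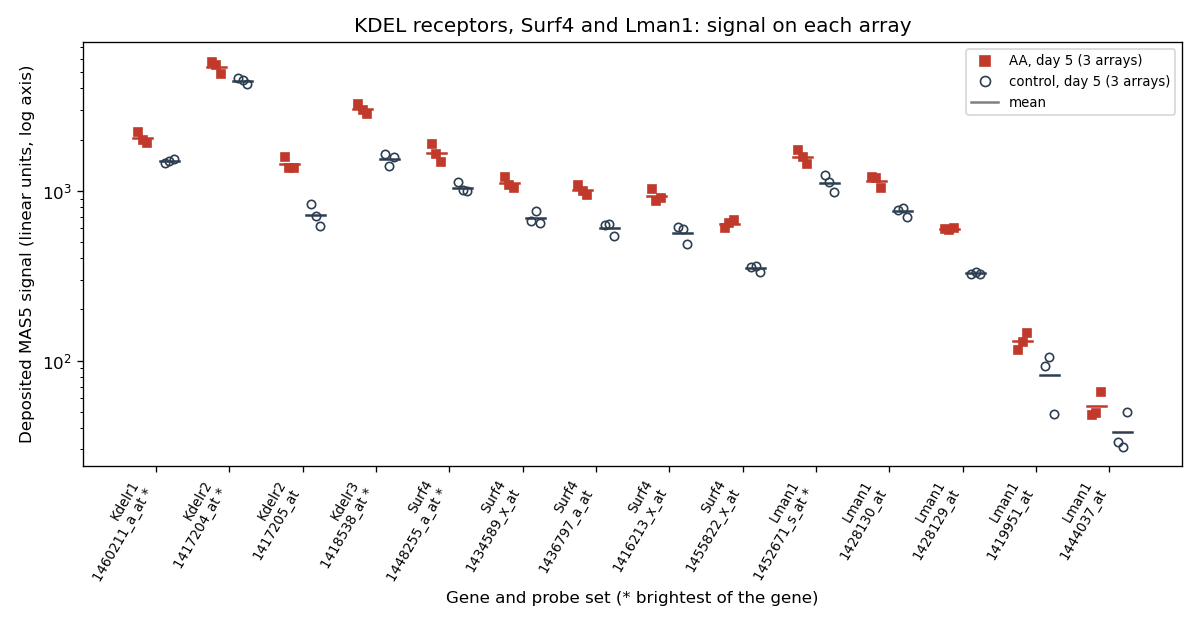
Deposited MAS5 signal (linear units on a log axis) of each probe set of the KDEL receptors, Surf4 and Lman1 on each of the 6 arrays, with AA-treated cultures as filled squares, control cultures as open circles and a line at each mean of 3. All AA values lie above all control values in every probe set shown except Lman1 1444037_at.

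Whether the 3 KDEL receptors changed to unequal degrees was tested within arrays, as the log2 difference between probe sets on each array. The difference Kdelr3 minus Kdelr1 was 0.53, 0.57 and 0.60 on the AA arrays and 0.18, -0.11 and 0.03 on the control arrays. It was higher in every AA array by 0.53 on average. Kdelr3 minus Kdelr2, by its brightest probe set, was higher in every AA array by 0.77 on average. With the mean of both Kdelr2 probe sets that value was 0.35. The second minus the brightest probe set of Kdelr2, a comparison chosen after its values were seen, was higher in AA by 0.83, the largest of the 4 differences computed. Each had p = 0.1 in a two-sided exact permutation test over 3 against 3 arrays, the smallest p this design allows, so none could pass the threshold, and adjusted over the 2 planned or all 4 comparisons it was also 0.1.

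Surf4, which binds soluble cargo in the ER and is homologous to a cargo receptor of yeast, was higher in AA in all 5 of its probe sets. The brightest, 1448255_a_at, gave 1875, 1639 and 1473 in AA-treated cells and 1131, 1006 and 999 in control cells. The groups were well apart, and the log2 fold change was 0.64 ± 0.07 (SE) with limma's adjusted p = 0.00245. Probe set 1455822_x_at gave 603, 644 and 677 in AA and 356, 361 and 332 in control. It had the largest change of the 5, 0.91 ± 0.09 (SE) on the log2 scale. The other 3 probe sets lay between, at 0.68 for 1434589_x_at, 0.74 for 1416213_x_at and 0.76 for 1436797_a_at. Of the 5 probe sets, 3 carry the suffix _x_at, which the array's maker gives where some probes also match other sequences.

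Lman1, the lectin of the ER-Golgi intermediate compartment, was higher in 3 of 5 probe sets. The brightest, 1452671_s_at, read 1750, 1582 and 1429 in AA-treated cells and 1246, 1119 and 988 in control cells. Its log2 fold change of 0.48 ± 0.07 (SE) passed with limma's adjusted p = 0.00790. With no replicate block the call was lost without AA replicate 1 (adjusted p = 0.105), AA replicate 2 (0.117), control replicate 2 (0.0879) or control replicate 3 (0.0669), and with the block it was lost under median centring (0.0634). Probe set 1428129_at was the steadiest, with 594, 588 and 601 in AA and 322, 334 and 325 in control. That difference, 0.90 ± 0.08 (SE) on the log2 scale with limma's adjusted p = 0.000982, was far beyond the spread between replicates. Probe set 1428130_at rose by 0.59 ± 0.07 (SE) with limma's adjusted p = 0.00385. The remaining 2 were the dimmest of the 5, though above the median signal of all probe sets, and did not pass. Lman1 1419951_at read 115, 130 and 145 in AA against 93.2, 105 and 48.2 in control, a log2 difference of 0.75 with limma's adjusted p = 0.128. Control replicate 3 was the low value, and the difference was 0.35 without replicate 3 and, with no replicate block, 0.42 without that array alone. Lman1 1444037_at read 47.7, 48.9 and 65.5 in AA against 33.2, 31.1 and 50.1 in control, which overlap.

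Mcfd2, the soluble calcium-binding partner that Lman1 needs to carry coagulation factors V and VIII, had 1933, 1835 and 1700 in AA-treated cells and 1662, 1563 and 1599 in control cells by 1424024_at. The AA values were all higher, but the log2 fold change was 0.14 ± 0.07 (SE) with limma's adjusted p = 0.348. Lman1 minus Mcfd2 within arrays, also chosen after the values were seen, was higher in every same-numbered pair, by 0.29, 0.28 and 0.46 (two-sided exact permutation p = 0.1, the smallest possible). Lman2, a related lectin that cycles through the early secretory route, had probe sets that went opposite ways. The brightest, 1423075_at, read 283, 272 and 269 in AA and 362, 340 and 328 in control. All AA values were lower, and the log2 fold change was -0.28 ± 0.09 (SE) with limma's adjusted p = 0.124. The mean of both Lman2 probe sets gave 0.01. The dimmer 1423074_at overlapped between the groups, at 222, 163 and 194 in AA and 218, 151 and 119 in control.

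The Ergic genes encode membrane proteins that cycle between the ER, the intermediate compartment and the Golgi, and in yeast the relatives of Ergic2 and Ergic3 form a complex that retrieves ER proteins without an HDEL signal. None of their 12 probe sets passed the test. Ergic1 by 1437908_a_at read 927, 880 and 854 in AA-treated cells and 1173, 1102 and 938 in control cells. All AA values were lower, with a log2 fold change of -0.27 ± 0.08 (SE) and limma's adjusted p = 0.108. With no replicate block and without control replicate 3 it passed as lower, at adjusted p = 0.0427. Ergic1 1423334_at was also lower in every AA culture, at -0.35 ± 0.10 (SE) and limma's adjusted p = 0.105, while 1423333_at stood at 0.02 and the groups overlapped. The probe sets 1438793_x_at and 1438792_at had signals under 50 and spread in both groups without order.

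Ergic2 by 1453796_a_at read 926, 919 and 912 in AA-treated cells and 709, 787 and 465 in control cells. The log2 fold change was 0.54 ± 0.14 (SE) with limma's adjusted p = 0.0706, and control replicate 3 was the low value: without replicate 3 the change was 0.30. When only probe sets above the median signal were fitted, this probe set passed at adjusted p = 0.0439. The other Ergic2 probe sets had 0.24 for 1424462_at and -0.16 for 1451360_at. Ergic3 gave log2 fold changes between -0.16 and -0.04 over its 4 probe sets. Its brightest, 1456867_x_at, read 994, 913 and 824 in AA-treated cells and 1048, 944 and 1056 in control cells, which overlap, with limma's adjusted p = 0.387.

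**Figure D2:**
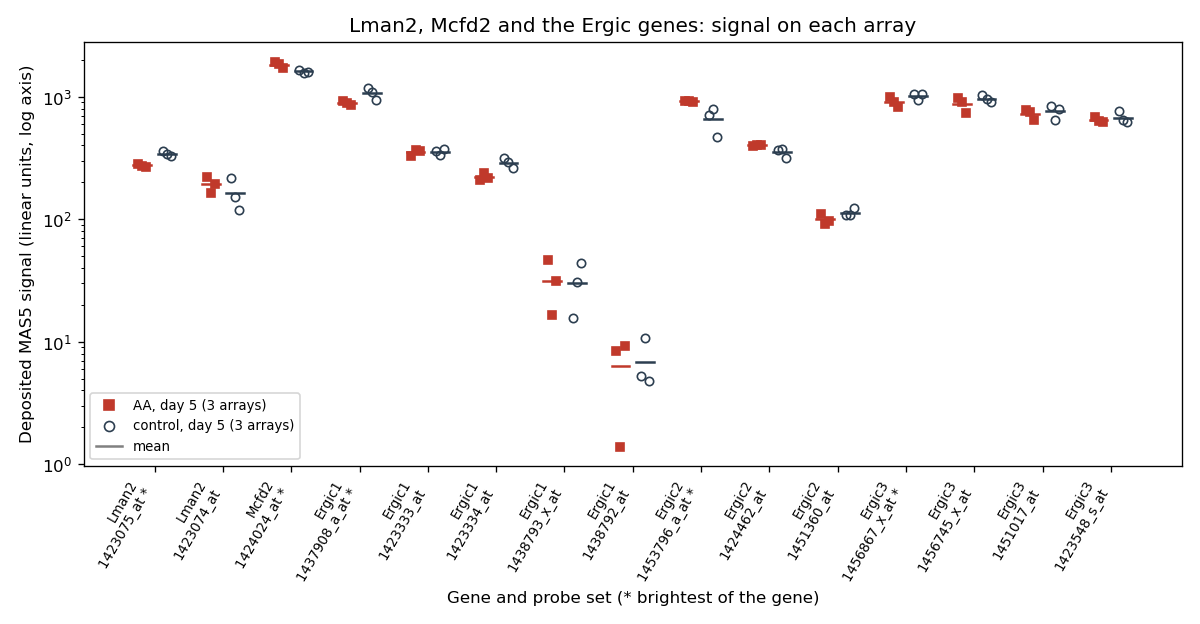
Deposited MAS5 signal (linear units on a log axis) of each probe set of Lman2, Mcfd2, Ergic1, Ergic2 and Ergic3 on each array, with AA-treated cultures as filled squares, control cultures as open circles and a line at each mean of 3. None of the 15 probe sets passed the test, and the spread is widest in the dimmest Ergic1 probe sets, 1438793_x_at and 1438792_at.

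Across the 29 probe sets, the deposited signals of all AA cultures lay above those of all control cultures in 16, where 11% of all probe sets did so, and below them in 3, where 11.8% did. The same-numbered pairs were all higher in AA in 18, where 18.9% of all probe sets were, and all lower in 5, where 20.4% were. Beyond the 11 that passed, the probe sets with AA above control were Kdelr2 1417204_at, Lman1 1419951_at, Mcfd2 1424024_at, Ergic2 1453796_a_at and Ergic2 1424462_at, and those with AA below control were Lman2 1423075_at, Ergic1 1437908_a_at and Ergic1 1423334_at. Kdelr3, all 5 Surf4 probe sets, Kdelr2 1417205_at and Lman1 1428130_at and 1428129_at passed in the fit with no replicate block, under every scaling and filter tried and with any culture left out. They did not pass in limma with a constant prior variance, under which 0 probe sets of the whole array passed (2587 higher and 2616 lower at an unadjusted p under 0.05, 11 and 0 among the receptors). Nor did they in the methods' paired t-test after Benjamini-Hochberg adjustment, in which 0 passed as well (2612 and 2827 unadjusted, 13 and 1 among the receptors).

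**Figure D3:**
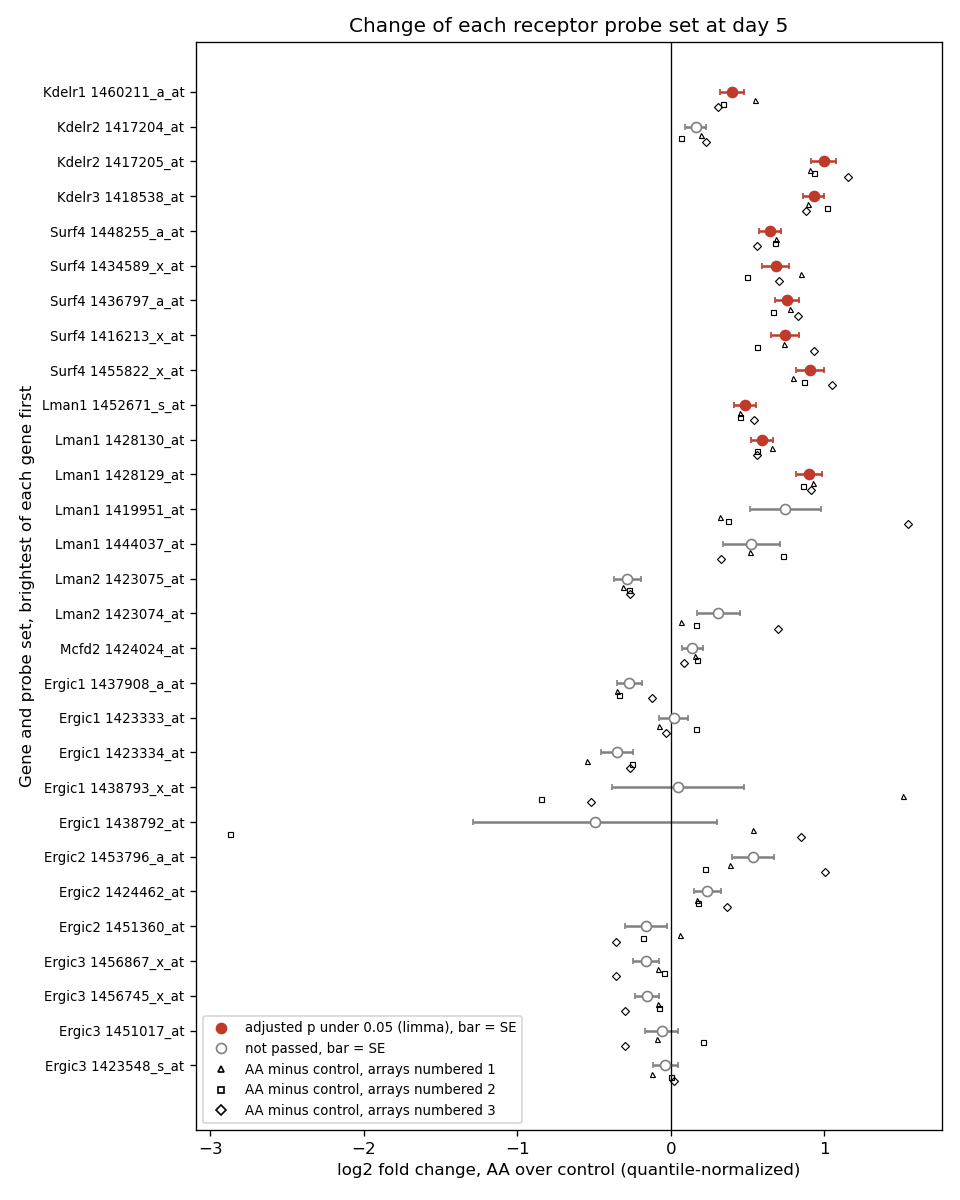
The log2 fold change of AA over control (horizontal axis, quantile-normalized) of the 29 probe sets, with bars of 1 SE from limma, filled where the adjusted p was under 0.05, and small open symbols for the same-numbered pairs of arrays. The 11 filled points are all on the side higher in AA and belong to Kdelr1, Kdelr2, Kdelr3, Surf4 and Lman1.

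The genes whose brightest probe set followed that of Kdelr3 most closely over the 6 arrays, among 10821 genes above the median signal, were Slc30a6, a zinc transporter of the Golgi (Pearson r = 0.999), Ufsp2, a protease of the UFM1 modifier (0.999), Pgm3, an enzyme of the synthesis of UDP-N-acetylglucosamine (0.999), Smpdl3a, a secreted phosphodiesterase (0.998), and Lamtor5, a subunit of the lysosomal Ragulator complex (0.998). These 6 points share 2 groups and the same normalization, so any gene with a clear difference between the groups scores high. Among the members the same measure was 0.97 for Surf4, 0.96 for Kdelr1, 0.91 for Mcfd2, 0.90 for Lman1, 0.79 for Kdelr2 and 0.70 for Ergic2, and it was -0.58 for Ergic3, -0.77 for Ergic1 and -0.89 for Lman2. All of these r are descriptions.

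The ligands of the KDEL receptors, ER residents with a KDEL-type ending, were taken as a textbook list of 37. Their endings were not checked against protein sequences, and 35 of the 37 had a probe set of their own. Of these 35, 6 were higher in AA, 0 were lower and 29 did not pass (limma), beside 4.06% higher and 3.83% lower among all genes. At an unadjusted p under 0.05, 15 were higher and 4 lower, beside 10.7% and 12.8% of all genes. The median log2 fold change of the 35 was 0.16, beside -0.02 over all genes. Those that rose included Fkbp7, a peptidyl-prolyl isomerase, with 4002 ± 521 in AA and 2217 ± 219 in control (SD, n = 3 each), and Pdia5, a disulfide isomerase, with 831 ± 22.5 and 450 ± 47.2. Rcn3, a calcium-binding protein of the lumen, rose by 0.58 and P3h1, which hydroxylates proline in procollagen, by 0.70 on the log2 scale. The log2 fold change was 0.01 for the chaperone Hspa5, -0.08 for Calr, -0.10 for Hsp90b1 and 0.03 for the disulfide isomerase P4hb, abundant KDEL ligands that did not pass and were chosen for mention after their values were seen. Hspa5 read 4807, 4995 and 4583 in AA-treated cells and 5107, 4103 and 4186 in control cells, which overlap.

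Genes of both coats that move the receptors were among those higher in AA. Of 15 COPII genes, 11 were higher and 0 lower at limma's unadjusted p under 0.05, where 10.7% and 12.8% of all genes were. After adjustment 9 were higher and 0 lower, where 4.06% of all genes were higher and 3.83% lower, with a median log2 fold change of 0.35. Among them, Sec16a, the scaffold of ER exit sites, changed by 0.64, Sec13, of the outer coat, by 0.50, Sec24d, a cargo-binding adaptor, by 0.48 and Sar1a, the GTPase that starts the coat, by 0.40. Of 17 genes of the COPI coat and its Arf cycle, 9 were higher and 0 lower (limma, 12 and 1 unadjusted), with a median of 0.34. Arfgap1 changed by 0.66 and Arfgap3 by 0.66, both GTPase activating proteins of Arf, the coat subunit Copb2 by 0.61 and Copz2 by 0.50. Of 17 tethers, SNAREs and retrieval factors, 7 were higher and 0 lower (limma, 14 and 0 unadjusted), with a median of 0.36. They included the SNAREs Bet1 at 0.63 and Stx18 at 0.41, the SNARE regulator Scfd1 at 0.51 and the Golgi membrane protein Yif1a at 0.38, whereas Rer1, which retrieves membrane proteins, had 0.12 with limma's adjusted p = 0.469.

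These coat and tether counts were smaller when some cultures were left out. Without replicate 1 they were 4 for COPII, 4 for COPI and 4 for the tethers, and without replicate 2 they were 1, 2 and 1. With no replicate block, leaving out AA replicate 1 gave 2, 5 and 2, AA replicate 2 gave 2, 4 and 1, AA replicate 3 gave 4, 6 and 3, and control replicate 2 gave 3, 3 and 2, while COPII had 5 without control replicate 3. Median centring in place of quantile normalization gave 1, 3 and 1. Calls higher in AA fell over the whole array too, from 1219 probe sets to 1071 without replicate 1, 556 without replicate 2 and 842 with median centring. With no replicate block they fell from 1089 to 468, 380 and 632 without AA replicates 1, 2 and 3. Without control replicates 2 and 3 they were 496 and 742. Sec16a, Arfgap1, Copb2 and Bet1 passed in each of the 9 fits that left out cultures, and the other coat and tether genes named above that had passed were lost in 1 to 6 of them.

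The list of other cargo receptors, among them p24 proteins and cornichons, held 1 call in each direction, which is near the share of all genes called (4.06% higher and 3.83% lower). Of 21, Tmed3, a p24 protein, was higher, with 2383 ± 208 in AA and 1681 ± 137 in control (SD, n = 3 each), Bcap29, a membrane protein of the ER, was lower, with 322 ± 10.4 and 470 ± 36.8, and 19 did not pass. Tmed3 did not pass without replicate 2 nor, with no replicate block, without AA replicate 1, AA replicate 2 or control replicate 2 (limma's adjusted p up to 0.106). Bcap29 did not pass without replicate 1 or replicate 2 nor, with no replicate block, with any 1 AA replicate or control replicate 2 left out (up to 0.0929). The median log2 fold change of the list was -0.02, and 10 of the 21 were above 0. That median was the value of Cnih3, which was dim, averaging 1.26 in AA and 1.03 in control. Tmed2, Tmed6, Tmed11, Lman1l and Mia2 also lay below the median signal of all probe sets, so this median says little. Of 9 measured genes reported as cargo of LMAN1 with MCFD2 or of SURF4, 0 were higher and 1 was lower, beside 4.06% and 3.83% of all genes. The 1 was the glycoprotein Lgals3bp, with 160 ± 9.63 in AA against 245 ± 14.0 in control and limma's adjusted p = 0.0217. Lgals3bp did not pass without replicate 1 or replicate 2 nor, with no replicate block, without AA replicate 1 or AA replicate 3 (up to 0.0720). Apob, Ctsc, F5 and Serpina1b of the same list lay below the median signal of all probe sets, so their values say little. F8, which encodes coagulation factor VIII, was above that median but low, with 21.7 ± 3.90 in AA and 40.8 ± 6.04 in control, and limma's adjusted p = 0.0790.

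**Figure D4:**
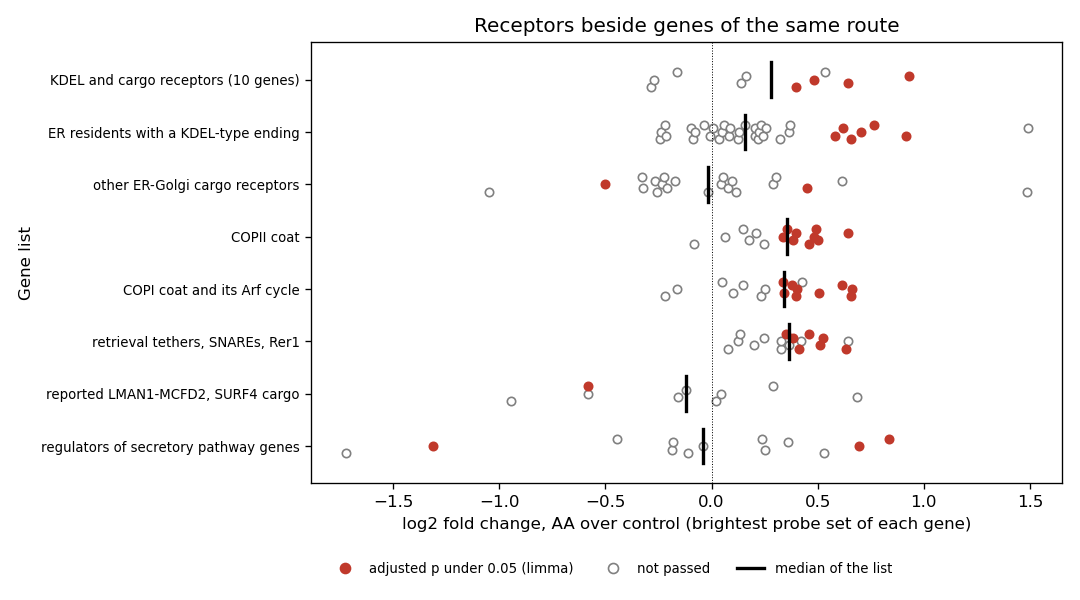
The log2 fold change of AA over control (horizontal axis) of the brightest probe set of each gene, for the 10 receptors and for 7 lists of genes of the same route, with filled points (higher or lower) where limma's adjusted p was under 0.05 and a bar at each list's median. The COPII, COPI and tether lists have medians of 0.35, 0.34 and 0.36. The list of other cargo receptors, several of them dim, has one of -0.02, the value of the dim gene Cnih3.

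Of 13 regulators of secretory pathway genes, 3 passed, 2 as higher and 1 as lower, beside 4.06% and 3.83% of all genes. At limma's unadjusted p under 0.05 the counts were 6 and 3, beside 10.7% and 12.8%. The median log2 fold change of the list was -0.04. Xbp1, a transcription factor that drives genes of the secretory route, read 4896, 4191 and 4018 in AA-treated cells and 2773, 2350 and 2483 in control cells, a log2 fold change of 0.69 with limma's adjusted p = 0.00108. The files do not separate its spliced from its unspliced form. Creb3, a membrane-bound factor released in the Golgi, read 1320, 1127 and 1029 in AA and 739, 548 and 672 in control, a change of 0.83. Ddit3, which encodes a factor induced in ER stress, went the other way, with 348, 339 and 319 in AA-treated cells against 889, 847 and 804 in control cells and a log2 fold change of -1.31 with limma's adjusted p = 0.000225. Creb3l1, a relative of Creb3 that osteoblasts express, had 0.25 with limma's adjusted p = 0.146.

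The cell type and the arrays were checked against markers. Of 14 osteoblast markers listed, 9 had a probe set of their own, and 7 of the 9 were above the median signal. Spp1, Runx2, Bglap, Bglap2 and Bglap3 had none of their own. Among the 9, 4 were higher in AA, including Ibsp and Alpl, where 4.06% of all genes were higher and 3.83% lower. Of these 4, Pth1r overlapped between the groups and passed in 4 of the 9 fits that left out cultures. The log2 fold change was above 0 in 8 of the 9 markers, but Dmp1 at 1.58, Sp7 at 0.29, Col1a1 at 0.11 and Col1a2 at 0.04 did not pass. Phex went the other way, at -0.56, and did not pass. The summed signal of the 9 was 22453 to 31160 in AA and 16304 to 19932 in control. The largest signals in that sum were those of the procollagen I genes, which did not pass. Col1a1 averaged 7122 in AA and 6052 in control (limma's adjusted p = 0.417), and Col1a2 8948 and 7961 (0.804). Of 6 adipocyte markers none was above the median signal, and of 7 skeletal myoblast markers 1 was. The chondrocyte markers summed to 635 to 805 in AA and 389 to 483 in control, with Hapln1 and Col2a1 of 7 higher in AA. Sox9 of the same list went the other way, with 169 ± 4.68 in AA and 220 ± 47.4 in control (SD, n = 3 each). It did not pass (limma's adjusted p = 0.283), and the log2 fold change was above 0 in 4 of the 7. The macrophage and endothelial markers summed to 124 to 152 in AA and 68.7 to 79.1 in control, with Csf1r of 9 higher in AA, while Ptprc and Itgam, which define leukocytes, averaged under 3 in both groups. The 3' to 5' ratio of the Gapdh control probe sets, a sign of RNA integrity, was 0.791 to 0.799 on the AA arrays and 0.807 to 0.920 on the control arrays, highest on control replicate 3. The same ratio of the actin probe sets overlapped between the groups, at 1.35 to 1.45 on the AA arrays and 1.39 to 1.79 on the control arrays, and was also highest on control replicate 3. The part of these differences in the receptor values was not tested, and in bulk RNA fewer cells of a type and less RNA per cell cannot be told apart. Without control replicate 3, and with no replicate block, 10 receptor probe sets were higher and 1 lower.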

How the data were processed

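The arrays covered 3 AA-treated and 3 control cultures of MC3T3-E1 cells at day 5. Per the labels and the file itself, the authors deposited linear intensity values made with MAS5 (no version given), with every array brought to the same 2%-trimmed mean of 150. Quantile normalization and GC-RMA, named in the paper's methods, were not applied to them. No detection calls came with the table, so dim probe sets were not called absent, and the number of arrays limits the precision. The median signal was 16.2 to 16.9 on the AA arrays and 14.9 to 17.7 on the control arrays.

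Of 45101 probe sets, 64 are controls and were left out. The 45037 others were log2-transformed, quantile-normalized between arrays and fitted in limma 3.58.1 (R 4.3.3). The replicate number was a block, following the paired tests of the methods, and the prior variance followed the signal, with 2 residual degrees of freedom and 6.18 from the prior. Benjamini-Hochberg adjustment ran over every probe set, at a threshold of 0.05. Signals in the text are as deposited and fold changes come from normalized values, so their ratios can differ. Within-array differences were tested by exact permutation in scipy 1.17.1, and the fit was tested on simulated data.

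In GEO's platform annotation 34945 probe sets have 1 symbol, 932 have several and 9160 have none. A gene was represented by its brightest probe set among those with that symbol alone. Coordinates are given for RefSeq promoters only. The members and lists were chosen with earlier results of these data known. All probe sets of the members were named, and of each list at most 4 genes per direction, those that passed with the lowest p, plus the 5 genes most like Kdelr3. Hspa5, Calr, Hsp90b1, P4hb, Rer1, F8 and Creb3l1, which did not pass, lie outside this rule and were named after their values were seen. So were the dim genes of the lists of other cargo receptors and of reported cargo. Ptprc, Itgam, Sox9, Dmp1, Sp7, Phex, Col1a1 and Col1a2 are named as markers, all but Ptprc and Itgam after their values were seen. A list of KDEL endings read from protein sequences was planned and is not used here. The alternatives were median centring or no normalization, 50 added before log2, a fit with no replicate block, a fit of the probe sets above the median signal alone, a constant prior variance, the leaving out of each replicate or array, the average over all probe sets of a gene, and the methods' t-test.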

Additional observations from a re-analysis of the deposited data

How the results depend on the processing

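No receptor probe set that passed at an adjusted p under 0.05 in any setting changed direction, and of 473 values of single receptor probe sets under alternatives 437 kept both their direction and their side of the threshold, or stayed short of it. Of the 11 receptor probe sets higher in AA, all 11 remained with no replicate block, with the signals as deposited and with 50 added, and 9 with median centring, which lost Kdelr1 and Lman1 1452671_s_at. With a constant prior variance the adjusted counts were 0 higher and 0 lower for the receptors, their genes, the 7 lists and the whole array, and the unadjusted p under 0.05, a count chosen after seeing the data, gave 11 receptor probe sets higher and 0 lower, 22 list genes higher and 4 lower, and 2587 probe sets higher and 2616 lower over the array. The methods' paired t-test after Benjamini-Hochberg gave 0 in each of these. Unadjusted at 0.01 it gave 8 receptor probe sets higher and 1 lower, Lman2 1423075_at, whose change was -0.28 and, as the mean of both Lman2 probe sets, 0.01. In the same test 3 receptor genes were higher and 1 lower, 18 list genes higher and 1 lower, and 706 and 736 over the array. At 0.05, also chosen after seeing the data, it gave 13 and 1 receptor probe sets, 5 receptor genes higher and 1 lower, 42 list genes higher and 8 lower, and 2612 and 2827 over the array.

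Over the whole array 1219 probe sets were higher and 1124 lower, so 52.0% of calls were higher, while median centring gave 842 and 1291, or 39.5%, and shifted the median log2 fold change to -0.05. Adding 50 gave 788 and 655. By gene, median centring left 2 receptor genes and 13 list genes higher and 5 lower, where the main counts were 34 and 3, and fitting only probe sets above the median signal gave 6 list genes lower. Leaving out cultures gave 380 to 1169 probe sets higher and 339 to 994 lower over the array, 9 to 11 receptor probe sets higher and 0 to 1 lower, 2 to 4 receptor genes higher and 0 to 1 lower, and 11 to 35 list genes higher and 1 to 3 lower. The deviations of same-numbered arrays had correlations of 0.0165, 0.00369 and 0.00994 over all probe sets, dim ones included. These small values cannot tell whether same-numbered samples share more than a number. With no replicate block, the receptors gave 11 higher and 0 lower, the lists 33 and 4 and the array 1089 and 1039, and every array but AA replicate 2 correlated best with its own number. The within-array difference of Kdelr3 and Kdelr1 stayed between 0.46 and 0.63, and that of Kdelr3 and Kdelr2 between 0.35 and 0.83. The cause of these changes was not tested. The low signals of the dimmest probe sets of Lman1 and Ergic1 limit what can be said of those probe sets.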
